A study of Mus musculus with 2 samples.

Results

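The alpha-globin locus of mouse lies on chromosome 11, and H3K4me3, the trimethylation of histone H3 that marks active gene starts, was measured across it by ChIP-seq. The genes described are the 5 globin genes Hba-x, Hba-a1, Hba-a2, Hbq1a and Hbq1b and 4 flanking genes, Nprl3, Mpg, Rhbdf1 and Snrnp25. They were chosen by name for their place in the locus, with earlier results of these data known, and the rule used no measured value. They are 9 of the 21938 protein-coding genes of the GENCODE annotation. All peaks overlapping a 130-kb window of the mm10 assembly, from within Il9r to beyond Hbq1a, were taken with them, which came to 19 of the 37379 peaks that the authors listed as replicated. The cells were MEL, an immortalized mouse erythroleukaemia line of red-cell precursors, given by the labels with no treatment, age or genotype. The series holds 1 group of 2 replicates and no other condition. Both replicates carry 1 biosample label, so the spread between them may be technical. Peak lists were used for replicate 1, replicate 2, the pooled replicates and the replicated peaks. They hold no read counts, and the sequencing depth is unknown. With 1 group there was no contrast to test, and values are set beside those of the rest of the genome as description.

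As background, alpha-globin chains pair with beta-globin chains to form haemoglobin. Hba-x codes for the zeta-like chain of the embryo, Hba-a1 and Hba-a2 for the near-identical adult alpha chains, and Hbq1a and Hbq1b for theta-like globins. The erythroid enhancers of the alpha-globin genes lie upstream of them, several inside introns of Nprl3, and are bound by erythroid factors such as GATA1, TAL1 and KLF1. Nprl3 itself codes for a subunit of GATOR1, a complex that restrains mTORC1 when amino acids are scarce. Mpg codes for a DNA glycosylase that removes alkylated bases, Rhbdf1 for an inactive rhomboid protein, and Snrnp25 for a protein of the minor spliceosome. No enhancer annotation was used here, and peaks are placed only by gene.

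The locus holds paired copies, so the sequences are given first. The adult alpha-globin genes, Hba-a1 (chr11:32283511-32284465) and Hba-a2 (chr11:32296489-32297298), have RefSeq promoters that were identical over all 297 aligned bases, and only the first is printed. The theta-like genes, Hbq1b (chr11:32286965-32287784) and Hbq1a (chr11:32300069-32300873), have promoters that share 286 of 300 bases. Hba-x (chr11:32276400-32278116) has no close copy. Each promoter runs from 250 bases before to 50 bases after the RefSeq start (GRCm38.p6, plus strand), and capitals mark matches to 4 kinds of motif on either strand. GATA words, the letters of GATA-factor sites, were GATA with an A or a T before it and an A or a G after it. TATA words were ATAAA with a T or a C before it. The others were CCAAT and the KLF-type letters CCNCNCCC.
Hba-x promoter, chr11:32276350-32276649: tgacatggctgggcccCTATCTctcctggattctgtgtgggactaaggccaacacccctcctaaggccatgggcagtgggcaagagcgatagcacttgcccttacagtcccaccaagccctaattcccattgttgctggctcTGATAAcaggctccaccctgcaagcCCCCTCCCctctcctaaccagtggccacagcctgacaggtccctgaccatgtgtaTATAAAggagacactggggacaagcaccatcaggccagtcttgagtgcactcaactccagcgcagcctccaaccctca
Hba-a1 promoter, chr11:32283422-32283721: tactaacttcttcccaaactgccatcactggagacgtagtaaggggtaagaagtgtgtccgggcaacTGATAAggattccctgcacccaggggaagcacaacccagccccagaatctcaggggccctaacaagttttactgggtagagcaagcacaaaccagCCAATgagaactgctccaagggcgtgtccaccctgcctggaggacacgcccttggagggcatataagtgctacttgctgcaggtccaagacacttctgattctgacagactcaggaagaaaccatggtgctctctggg
Hbq1b promoter, chr11:32286714-32287013: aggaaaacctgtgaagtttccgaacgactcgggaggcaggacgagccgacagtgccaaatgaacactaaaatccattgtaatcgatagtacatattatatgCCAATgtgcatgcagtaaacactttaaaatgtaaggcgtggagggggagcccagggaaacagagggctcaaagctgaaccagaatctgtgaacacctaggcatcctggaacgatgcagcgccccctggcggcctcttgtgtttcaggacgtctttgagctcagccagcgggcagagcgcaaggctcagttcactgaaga
Hbq1a promoter, chr11:32299819-32300118: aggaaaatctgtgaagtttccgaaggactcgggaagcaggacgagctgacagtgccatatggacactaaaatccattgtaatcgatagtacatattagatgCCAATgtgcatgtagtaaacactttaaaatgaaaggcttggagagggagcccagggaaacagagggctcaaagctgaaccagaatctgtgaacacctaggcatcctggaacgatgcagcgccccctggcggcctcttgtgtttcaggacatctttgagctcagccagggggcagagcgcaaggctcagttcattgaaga

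Hba-x held GATA words 234 and 108 bases before its start, a CCNCNCCC word at 83 bases and a TATA word at 28 bases. Hba-a1 held a GATA word at 183 bases and CCAAT at 88 bases before its start. Its printed sequence also holds the letters TATAAG upstream of the start, which the TATA words defined above do not include. Both theta-like promoters held CCAAT upstream of the start and no other of these words. Of all 32817 RefSeq promoters, 29.8% held a GATA word, 22.9% a TATA word, 37.4% CCAAT and 49.5% CCNCNCCC, so these matches are common and stand only as description. The 14 substitutions between the theta-like promoters, counted from the first printed base with Hbq1b first, include C8T, T98G, G145A and C294T.

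H3K4me3 peaks were listed at the starts of 2 of 5 globin genes and 4 of 4 flanking genes. Hba-a1 and Hbq1b had a replicated peak within 1000 bp of an annotated start, which is called marked below, as did Nprl3, Mpg, Rhbdf1 and Snrnp25. Hba-x, Hba-a2 and Hbq1a had none. The same 6 of 9 genes were marked in the replicated, the pooled, the replicate 1 and the replicate 2 list, against 50.3%, 50.6%, 50.4% and 50.9% of all protein-coding genes. They were the same 6 with peaks within 500 bp (49.6% of all genes), within 2500 bp (51.9%), at the 5′-most start only (46.9%) and with each peak given to its nearest start alone (46.7%). With only peaks of a −log10 q of at least 5, Hba-a1 was lost and 5 members were left (49.5% of all genes). The embryonic gene Hba-x lay in a peak-free stretch of 13.5 kb, from 32269681 to 32283178. Hba-a2 and Hbq1a lay in a peak-free stretch of 32.08 kb, from 32287923 to the end of the window. Both stretches were free of peaks in every list, with lengths of 13.42 to 13.54 kb and 32.05 to 32.08 kb.

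**Figure D1:**
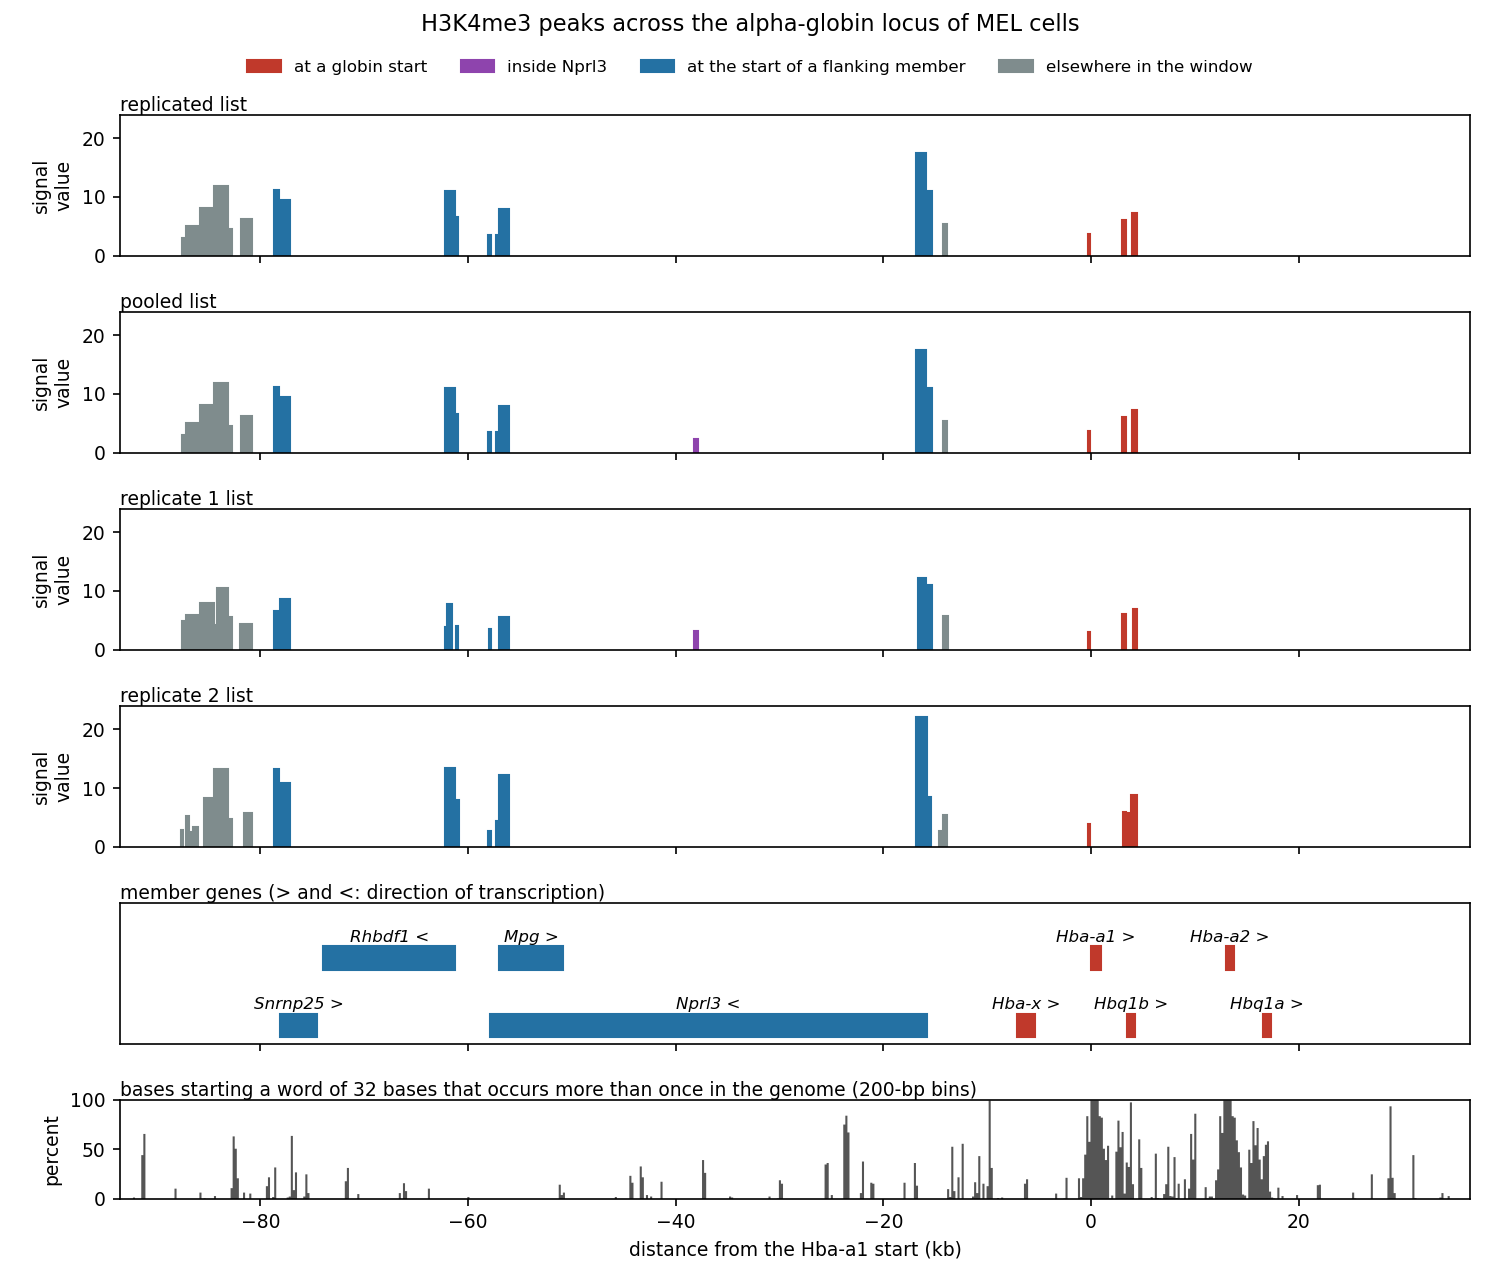
Peaks in the 4 lists across the locus by distance in kb from the Hba-a1 start, with bar height giving the signal value, which compares only within a list. The gene panel shows the 9 members (globin genes red, flanking genes blue), and the lowest panel gives the percent of 32-base words that occur more than once in the genome. Peaks stand at the flanking genes, at Hba-a1 and at Hbq1b, with none in any list at Hba-x, Hba-a2 or Hbq1a.

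The members differed in the CpG content of their promoters. The 4 flanking genes had CpG-rich promoters, with observed over expected CpG of 0.71 for Nprl3, 0.61 for Mpg, 0.85 for Rhbdf1 and 0.74 for Snrnp25 in the 500 bases on either side of the start. Hba-x, Hba-a1 and Hba-a2 had 0.07, 0.13 and 0.23, and Hbq1a and Hbq1b had 0.45 and 0.52. These windows were centred on GENCODE starts, which lie upstream of the RefSeq start by 200 bp at Hba-x, 161 bp at Hba-a1 and 3 bp at Hba-a2. The windows of the adult copies thus do not cover matching stretches, and their values do not compare like with like. All 4 CpG-rich members were marked, against 79.8% of the 9738 protein-coding genes of that class (ratio of at least 0.6 and GC of at least 50%). Of the intermediate class, 1 of 2 members was marked, against 53.0% of 3415 genes. Of the CpG-poor class (ratio under 0.4), 1 of 3 members was marked, against 16.6% of 8785 genes. With 2 to 4 members in a class, these counts are a description.

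Hba-a1 had the lowest signal and the narrowest domain of the marked members, with its peak upstream of the gene only. The peak ran over 254 bp (chr11:32283179-32283432) in the replicated list, with a signal value of 3.66 and a −log10 q of 4.97. Replicate 1 placed it over 232 bp with a signal value of 3.05 and a −log10 q of 2.55, and replicate 2 over 266 bp with 3.93 and 6.26. Among marked genes its signal stood at the 0.5 percentile in replicate 1, at 2.0 in replicate 2 and at 1.1 in the replicated list, so it was near the bottom in each. The peak ended 79 bp before the GENCODE start and 240 bp before the RefSeq start, which differ by 161 bp. It therefore stopped short of the GATA word shown above. The marked genes next to it by signal in the replicated list, out of 11037, were Tppp, Trim30c and Dpep2, with domains of 380, 172 and 172 bp.

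The Hba-a1 peak and the matching stretch upstream of Hba-a2 are printed here because the peak covers bases in which the copies differ. Capitals mark bases covered by a 32-base word found only once in the genome.
Hba-a1 peak, chr11:32283179-32283432: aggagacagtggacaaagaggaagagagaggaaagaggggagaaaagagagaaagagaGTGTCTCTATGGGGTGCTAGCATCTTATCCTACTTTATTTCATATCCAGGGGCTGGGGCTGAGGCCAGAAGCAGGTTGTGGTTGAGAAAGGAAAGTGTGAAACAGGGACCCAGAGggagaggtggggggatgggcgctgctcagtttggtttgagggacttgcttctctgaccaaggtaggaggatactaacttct
Hba-a2 counterpart, chr11:32296014-32296249: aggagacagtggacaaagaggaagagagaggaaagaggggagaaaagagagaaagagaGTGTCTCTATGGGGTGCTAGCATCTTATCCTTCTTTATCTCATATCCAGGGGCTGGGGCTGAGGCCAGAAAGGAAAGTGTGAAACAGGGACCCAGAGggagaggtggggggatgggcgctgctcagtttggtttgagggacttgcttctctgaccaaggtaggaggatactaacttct

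The counterpart matched 236 bases of the peak, with 2 substitutions, A90T and T97C, counted from the first base of the peak and with the Hba-a1 base first. A run of 18 bases, placed by the alignment at positions 125 to 142 of the peak, was present upstream of Hba-a1 and absent upstream of Hba-a2. The summit lay at position 132 in the replicated and pooled lists, 130 in replicate 1 and 139 in replicate 2. All 4 summits thus fell within the 18 bases that only the Hba-a1 copy holds in the reference sequence. The sequence of these copies in the MEL cells was not examined. The labels give a size range of 150 to 350 bp, which is far wider than 18 bases, so the summits do not place the signal on those bases. The replicated and pooled lists gave the same peak and were derived from both replicates, so these summits are not 4 separate measurements. Of the 254 bases of the peak, 115 lay in a single-copy word, in 1 run from 32283237 to 32283351. Repeated words alone covered 152 bases before that run and 960 bases after it, as far as 32284311 in the gene. Other single-copy runs near Hba-a1 had no peak in any list. Among them were runs of 261, 185 and 63 bases farther upstream and 63 bases just past those 960. The counterpart held a single-copy run of 97 bases, from 32296072 to 32296168, with the same 152 and 960 bases of repeated words around it and no peak in any list.

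**Figure D2:**
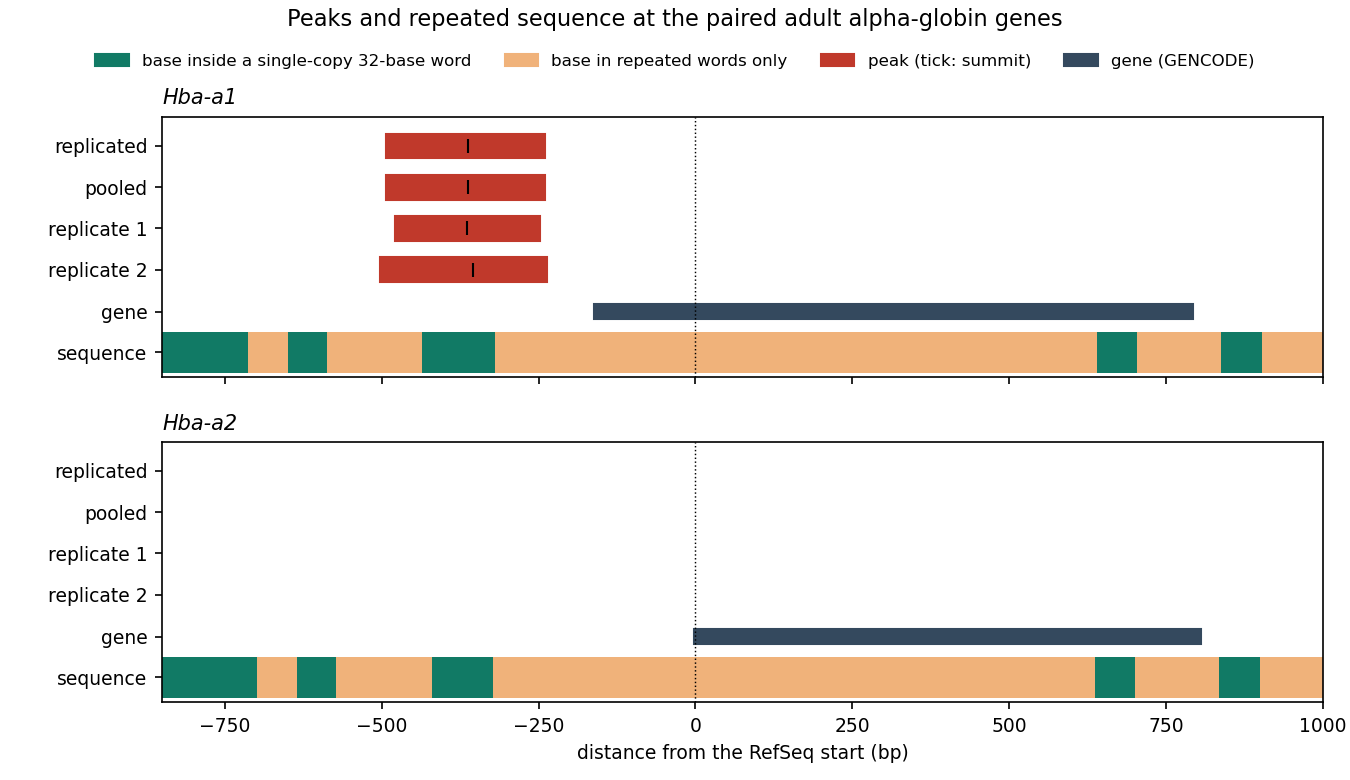
Peaks of the 4 lists (red bars, tick at the summit) at Hba-a1 above and Hba-a2 below, by distance in bp from each RefSeq start, over the annotated gene and a strip that marks bases in a single-copy 32-base word (green) or in repeated words only (orange). The Hba-a1 peak sits over a green run of 115 bases, and the green run of 97 bases at Hba-a2 has no peak.

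Within 500 bases of the GENCODE start, 88% of 32-base words at Hba-a1 and 93.2% at Hba-a2 occurred more than once in the genome. As with the CpG ratios, the windows of these copies do not cover matching stretches. The values were 43.6% for Hbq1b and 43.7% for Hbq1a. Hba-x had 0% and the flanking genes at most 0.5%. Repeated sequence was thus about as common at the marked Hbq1b as at the unmarked Hbq1a, and high at both the marked Hba-a1 and the unmarked Hba-a2. How reads that match several places were treated is not stated, and the part of repeated sequence in the peaks of the paired genes was not tested. Hba-x, also without a peak, had no repeated 32-base word around its start.

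Hbq1b had a peak upstream of its start and another toward the far end of the gene. In the replicated list the downstream peak began 486 bp past the start of this gene of 820 bp. The summit of that peak lay 720 bp past the start, in an untranslated part of the gene. The upstream peak (chr11:32286491-32286875) had a signal value of 6.0 and the downstream peak (chr11:32287451-32287922) 7.30 in the replicated list. The upstream peak had 6.03 in replicate 1 and 5.90 in replicate 2, and the downstream peak 6.98 and 8.77. Replicate 2 held a further peak between them, over the first part of the gene (chr11:32286979-32287216, signal value 5.79), that the replicated list did not overlap. The Hbq1b signal, taken from the downstream peak as the stronger one, stood at the 10.6 percentile of marked genes in each replicate. Repeated words made up 15.8% of the upstream and 3.4% of the downstream replicated peak, against 62.3% of the Hba-a1 peak. The match to the Hbq1a side differed at 25 of 382 aligned bases for the upstream peak of 385 bp. For the downstream peak of 472 bp it differed at 32 of 277 aligned bases. Gaps and bases left unaligned are not in these counts.

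Nprl3 (chr11:32225628-32267707, minus strand) had the strongest start of the locus. Its peak just inside the gene (chr11:32266638-32267658) had a signal value of 17.5 and a −log10 q of 102 in the replicated list. The signal value was 12.2 in replicate 1 and 22.0 in replicate 2, at the 51.2 and 85 percentiles of marked genes. The upstream peak (chr11:32267733-32268172) had 11 in the replicated list, 11.1 in replicate 1 and 8.42 in replicate 2. Nprl3 was the only member above the middle of the marked genes in both replicates.

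The other flanking genes stood lower. Snrnp25 (chr11:32205415-32208984, plus strand) had replicated peaks of signal value 11.2 (chr11:32204866-32205267) and 9.45 (chr11:32205436-32206323), and its percentile was 19.1 in replicate 1 and 34.6 in replicate 2. Rhbdf1 (chr11:32209585-32222300, minus strand) had peaks of 11 (chr11:32221283-32222247) and 6.53 (chr11:32222317-32222583), with percentiles of 14.5 and 36.1. Mpg (chr11:32226505-32232700, plus strand) starts inside the 3′ end of Nprl3. Its main peak (chr11:32226484-32227474) had 7.88, with lesser peaks of 3.46 (chr11:32225467-32225691) and 3.47 (chr11:32226170-32226355) upstream. Its percentile was 5.7 in replicate 1 and 26.7 in replicate 2. All of these genes and Nprl3 ranked higher in replicate 2. The percentile of a gene differed between replicates by a median of 17.1 points over the 10964 genes marked in both, and by 15.5 to 33.8 points at these genes, where the gap of Nprl3 was above that of 76% of genes. Hba-a1 differed by 1.5 points.

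Peaks within 1000 bp of each other were merged into domains. The Hba-a1 domain measured 249 ± 24 bp and the Hbq1b domain 1420.5 ± 21.9 bp (SD, n = 2 replicates). The flanking genes measured 1304.5 ± 107 bp for Rhbdf1, 1494.5 ± 44.5 bp for Snrnp25, 1973 ± 77.8 bp for Mpg and 2206.5 ± 1126 bp for Nprl3. The Nprl3 spread came from 1410 bp in replicate 1 and 3003 bp in replicate 2, where a peak of 160 bp (chr11:32268875-32269034) joined the start to a peak farther upstream. The Hba-a1 domain was below those of the other members in both replicates, while Hbq1b overlapped the range of the flanking genes. In the replicated list that overlap rested on the merging. Hbq1b had 472 bp there against 1301 to 2008 bp for the flanking genes with gaps of up to 500 bp, and 472 bp against 888 to 1021 bp with no merging. Smaller gaps were not tried in the replicate lists, and replicate 2 held a further peak between the upstream and downstream Hbq1b peaks. In the replicated list every marked member lay under the median of 2258 bp over all marked genes, with 254 to 2008 bp.

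**Figure D3:**
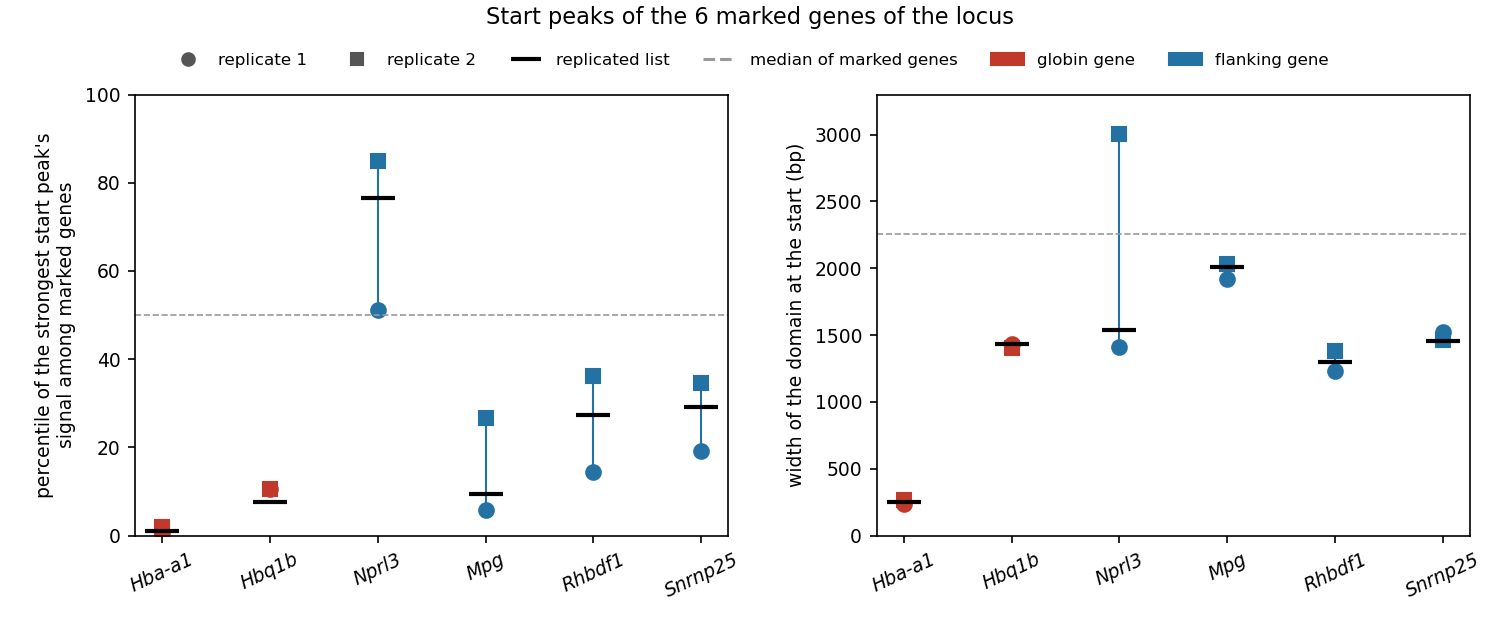
Left, percentile of each marked member's strongest start peak by signal among all marked genes, and right, width in bp of the domain at the start, for replicate 1 (circles), replicate 2 (squares) and the replicated list (black bars). Globin genes are red, flanking genes blue, and dashed lines give the median of marked genes. Hba-a1 is lowest in both panels, and Nprl3 is highest in signal.

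Several starts of the locus lay in a gap between flanking peaks. In the replicated list this held for 4 of the 6 marked members, Hbq1b, Nprl3, Rhbdf1 and Snrnp25, against 32.2% of the 10287 genes with a peak near the 5′-most start. The gap was 575 bp at Hbq1b, 74 bp at Nprl3, 69 bp at Rhbdf1 and 168 bp at Snrnp25, against a median of 179 bp over all such genes (quartiles 122 and 260 bp). The gaps moved with the list. The Hbq1b gap was 682 bp in replicate 1 and 94 bp in replicate 2, above the median of 215 bp in the one list and below the median of 169 bp in the other. Sequence within 500 bases of the Hbq1b start held 43.6% repeated words, against at most 0.5% at the flanking genes. The part of repeated sequence in the Hbq1b gap was not tested. The Rhbdf1 gap was 339 bp in replicate 1 and 47 bp in replicate 2, and the Snrnp25 gap 233 and 142 bp. The Mpg start lay inside a peak, and Hba-a1 had a peak on the upstream side only. The pooled list gave the same 4 members (32.6% of all genes), replicate 1 gave 5 with Mpg added (53.2%), and replicate 2 gave 3 without Nprl3 (23.8%), whose upstream peak there had its edge on the start base itself. Hbq1b, Rhbdf1 and Snrnp25 had their start between peaks in every list.

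**Figure D4:**
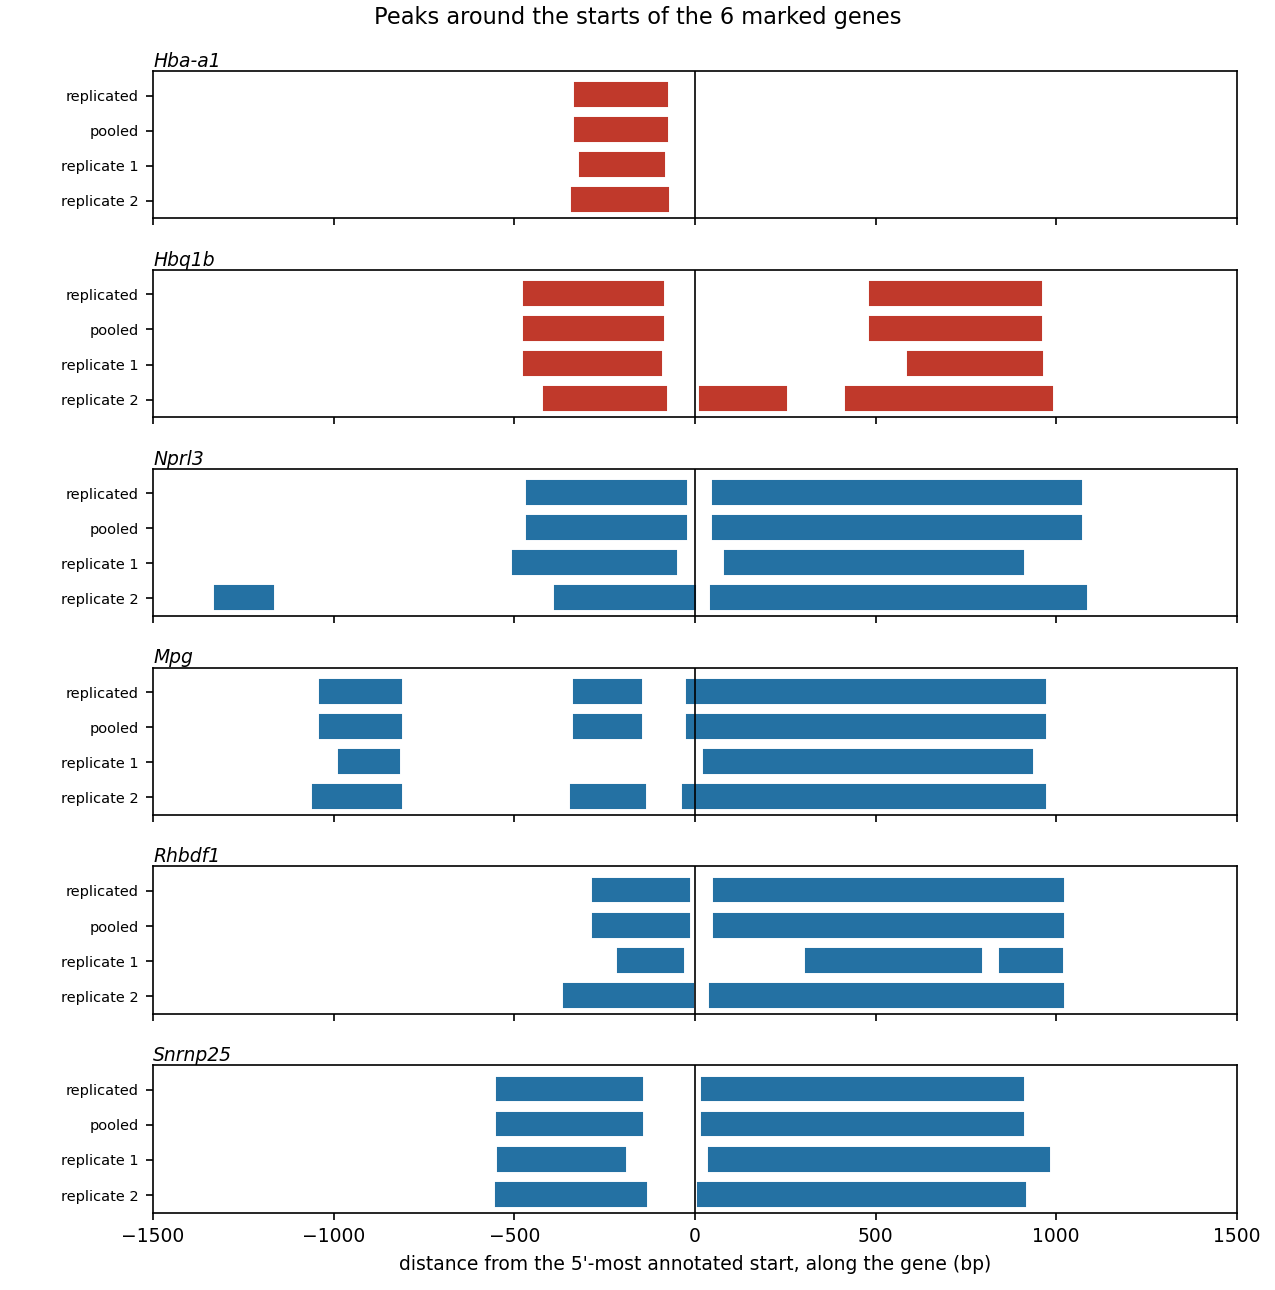
Peaks of the 4 lists around the 5′-most start of each marked member, along the direction of the gene, with globin genes in red and flanking genes in blue. Gaps open at the start line at Hbq1b, Rhbdf1 and Snrnp25 in every list, and the Hba-a1 peak stays on the upstream side.

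The body of Nprl3, in which alpha-globin enhancers are known to lie, held no replicated peak away from gene starts. H3K4me3 marks gene starts and no other mark was measured, so the activity of the enhancers cannot be read from this. Between 32227475 and 32266637, 39.16 kb of the gene were free of replicated peaks. Replicate 1 held 1 internal peak (chr11:32245295-32245671, signal value 3.26, −log10 q of 5.17), replicate 2 held none, and the pooled list held 1 at the same intron site (chr11:32245307-32245629, signal value 2.28, −log10 q of 1.95). The internal peak lay 22140 bp into the gene by its pooled summit. Its signal stood at the 1.6 percentile of pooled peaks and the 16.5 percentile of replicate 1 peaks, so it was among the weak ones. The 300 bases around the pooled summit, which run past the end of the peak, are printed because this is the only site inside Nprl3, away from gene starts, with a peak in any list, with capitals for the GATA words, CCNCNCCC and TGANTCA, the letters of NF-E2 sites.
Nprl3 intron peak, chr11:32245417-32245716: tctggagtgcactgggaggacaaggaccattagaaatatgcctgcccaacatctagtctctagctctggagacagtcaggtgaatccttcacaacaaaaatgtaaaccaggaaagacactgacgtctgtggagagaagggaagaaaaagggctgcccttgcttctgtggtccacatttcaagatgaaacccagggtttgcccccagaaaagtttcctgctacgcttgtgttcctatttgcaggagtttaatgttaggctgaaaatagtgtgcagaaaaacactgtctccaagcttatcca

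None of those words was found there. A peak counted as internal if it overlapped the gene and lay over 1000 bp from the 5′-most start of every protein-coding gene. The peaks at the Mpg start, which overlap Nprl3, thus did not count. Of marked genes with 0.5 to 2 times the length of Nprl3 (42080 bp), 40.1% of 4348 had an internal replicated peak. Nprl3 fell with the 2605 that had none. The share was 43.9% in the pooled list, 56.7% in replicate 1 and 46.0% in replicate 2. Since 2605 marked genes share the value of 0, no gene is named as most like Nprl3.

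**Figure D5:**
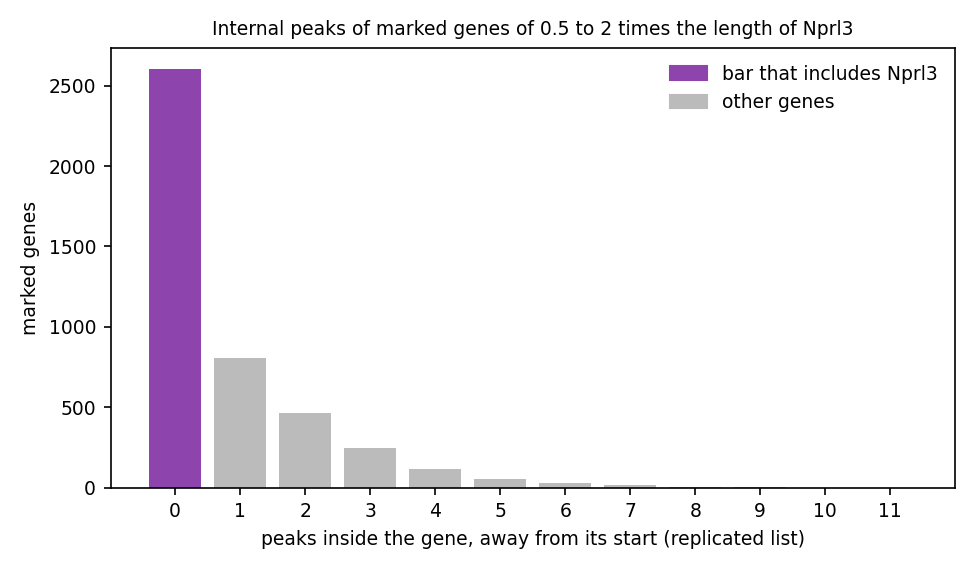
Number of marked genes with 0.5 to 2 times the length of Nprl3, by their number of internal replicated peaks. Internal peaks overlap the gene and lie over 1000 bp from the 5′-most start of every protein-coding gene. Nprl3 is in the bar at 0, with 2605 genes, and the highest count is 11 peaks.

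Between Nprl3 and Hba-x lay the upstream peak of the Nprl3 start, described above, and 1 further replicated peak (chr11:32269265-32269680), 1558 bp from the Nprl3 start at its nearer edge. Its signal value was 5.36 in the replicated list, 5.68 in replicate 1 and 5.43 in replicate 2, and all 4 lists held it. The 300 bases around its summit are shown because this was the nearest peak upstream of Hba-x.
Peak upstream of Nprl3, chr11:32269205-32269504: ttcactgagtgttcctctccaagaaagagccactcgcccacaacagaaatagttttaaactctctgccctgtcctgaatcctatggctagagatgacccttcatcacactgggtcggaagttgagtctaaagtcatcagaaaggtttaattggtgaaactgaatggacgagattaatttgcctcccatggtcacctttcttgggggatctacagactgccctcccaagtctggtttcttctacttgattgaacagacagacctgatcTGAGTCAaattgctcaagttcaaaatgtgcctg

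The capitals mark a TGANTCA word, which 7.60% of all replicated peaks held within 300 bases of sequence around the summit. No GATA word was found there, nor at the summits of the Hba-a1 peak and the upstream Hbq1b peak, against 35.7% of all replicated peaks with at least 1. That share was 23.7% for replicated peaks at a protein-coding start and 47.4% for the others. The downstream Hbq1b summit held 1 GATA word. Around the summit 7 of the 19 peaks of the window (36.8%) held a GATA word, which is near the share of all peaks. Most of these 7 lay nearest to Il9r, which is not a member. Searched over the whole peak, 11 of 19 (57.9%) did, against 61.6% of all replicated peaks.

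The window as a whole was rich in peaks. It held 19 replicated peaks, 3 at globin starts, 9 at flanking starts, 0 inside Nprl3 and 7 elsewhere, or 14.6 per 100 kb against 1.37 per 100 kb in the rest of the genome. Peaks covered 9.56% of the window, against 1.15% of the rest. Of 20975 windows of the same length along the genome, 65 held at least as many peaks, against 152 in the replicate 1 list and 23 in the replicate 2 list, each set against its own count in the window. The window was set around 9 of the 21938 protein-coding genes and also holds the Il9r start. The compared windows were not matched for their number of genes, and the part of gene density in these values was not tested. The other lists held 20 peaks (pooled), 21 (replicate 1) and 23 (replicate 2). Replicate 2 overlapped 20 of the 21 peaks of replicate 1, and replicate 1 overlapped 20 of the 23 peaks of replicate 2. That is 95.2% and 87%, against 77.5% and 84.0% of all peaks. Of the 7 peaks elsewhere, 6 formed the start domain of Il9r, the gene of the interleukin-9 receptor at the far edge of the window. This domain of 6747 bp stood at the 98.9 percentile of marked genes by width. It measured 6728 bp in replicate 1 and 4915 bp in replicate 2, at the 97.7 and 95.8 percentiles. The Il9r promoter was CpG-poor, with a ratio of 0.21, and the Il9r signal stood at the 35.1 and 33.8 percentiles in replicates 1 and 2.

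Genes related to the members were counted by list, with Nprl3, Snrnp25, Mpg and Rhbdf1 included in the lists of their own kind. Of the alpha-globin regulators, all 10 annotated were marked, and the widest domains were at Ldb1 (9936 bp), the bridging cofactor of the GATA1 complex, Nfe2 (9648 bp) and Gata1 (7953 bp). The beta-globin cluster had 1 of 5 genes marked, the adult gene Hbb-bt, with a domain of 690 bp at the 3.6 percentile by signal. The adult gene Hbb-bs and the embryonic gene Hbb-y were unmarked. The adult beta-globin genes were thus 1 marked and 1 unmarked gene, which is 1 pair beside 50.3% of all genes marked. Word repetition was not counted there, and a shared reason with the alpha-globin pairs was not tested. All 3 GATOR1 genes were marked, with domains of 1658 bp at Depdc5, 1561 bp at Nprl2 and 1535 bp at Nprl3, and the signal percentile of Nprl3 (76.6) was above those of Depdc5 (26.7) and Nprl2 (23.8). All 8 minor spliceosome genes were marked, with the widest domains at Zcrb1, Zmat5 and Zrsr2. Of 11 DNA glycosylase genes 10 were marked, widest at Smug1, Tdg and Mbd4, and Neil2 was not. Of 9 rhomboid genes 6 were marked, widest at Rhbdd3, Rhbdf2 and Rhbdd2, and Rhbdl1, Rhbdl2 and Rhbdl3 were not. As a check of the labelled cell type, 7 of 7 erythroid markers were marked, and 0 of 4 lymphoid, 0 of 3 myeloid and 0 of 2 liver markers. These shares stand beside the 50.3% of all genes given above.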

How the data were processed

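H3K4me3 ChIP-seq was measured in 2 replicates of MEL cells, 1 group. Per the deposited notes, alignments of a replicate set against a control gave its list, those of both gave the pooled list, and these together gave the list of replicated peaks. Neither the aligner and peak caller nor the rule for replicated peaks or the handling of reads with several matches is stated. The deposited narrowPeak lists give a signal value, a score of the authors that compares only within a list, and a −log10 q value by the authors. Lists on mm10 were used, and 1 list on mm9 was not.

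Gene starts came from GENCODE M21 and sequence from RefSeq GRCm38.p6, which is the mm10 assembly. A gene was marked with a peak within 1000 bp of any start, and domains merged gaps of up to 1000 bp. Words of 32 bases were counted on both strands of the 19 autosomes, X and Y, tested on simulated data with planted copies. No p-value was computed, since there was 1 group. All 9 members, window genes with a start peak, up to 3 genes of each list and the neighbours of Hba-a1 by rank were named. Members and lists were chosen with earlier results of these data known. Python 3.11.15, numpy 2.4.6, pandas 2.3.3, numba 0.67.0, pysam 0.24.0, biopython 1.88 and matplotlib 3.10.9 were used. Alternatives covered distances, starts, lists, thresholds, gaps, overlaps and word lengths.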

Additional observations from a re-analysis of the deposited data

How the results depend on the processing

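The 6 marked members were the same under every alternative tried except a −log10 q of at least 5, which left 5 without Hba-a1. Peaks inside Nprl3 numbered 0, and 1 in the pooled list and with a distance of 500 bp, where a peak upstream of Mpg then counted. With 1 replicate alone they ranged over 0 to 1. The median domain width of the marked members, 1445 bp, was 926.5 bp with no merging and 1379.5 bp with gaps of 500 bp, and 1423 to 1434 bp with 1 replicate alone. In the replicated list the Hbq1b domain was 472 bp with no merging and with gaps of 500 bp, against 1432 bp, which took it below all flanking genes. With gaps of 2000 bp the Nprl3 domain was 3043 bp. Sharing between replicates fell to 71.4% of replicate 1 peaks and 65.2% of replicate 2 peaks when 50% of both peaks had to overlap, against 52.5% and 65.5% in the rest of the genome, so that replicate 2 was no longer above the rest. Peaks with a GATA word numbered 11 over the whole peak (57.9%, against 61.6% of all peaks) and 7 around the summit (36.8%, against 35.7%). Repeated words at Hba-a1 ranged over 84.8% to 90.8% with words of 50 to 24 bases. No paired analysis was possible because there is 1 group. The unknown depth limits every absent peak to not having been called.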
